A study of Mus musculus with 4 samples.

Results

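The 10 genes described here, Spic, Vcam1, Adgre1, Itgad, Cd163, Hmox1, Blvrb, Slc40a1, Slc11a1 and Igf1, are genes of red pulp macrophages and of the recycling of iron from red blood cells. They were taken by gene symbol from the 54532 genes of the deposited tables, and all 10 were found and passed the filter on low counts. They were chosen by their log2 fold changes between NECA and DMSO in these same libraries, so their values in that comparison are a description without a test. The cells were PMN-MDSC, polymorphonuclear cells of the myeloid line that suppress T cells and resemble neutrophils, purified from newborn C57BL/6 spleens. Over 5 days they received NECA, an agonist of the adenosine receptors, or DMSO as the solvent alone, and each condition had 2 libraries. The strain, the organ, the age and the cell purification were common to both conditions. Whether the libraries of 1 condition came from separate animals or cultures is not given, so p-values measure the spread between these libraries, which may be technical.

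Red pulp macrophages are the resident macrophages of the spleen that take up old and damaged red blood cells. They break down the haem of haemoglobin, release its iron and return that iron to the plasma, from where the bone marrow uses it again for new red blood cells. Their identity depends on the transcription factor Spi-C, the product of Spic, which haem induces by removing the repressor Bach1. Neutrophils, the class to which PMN-MDSC belong, are not known for recycling haem, but they hold iron-binding granule proteins and a phagosomal metal pump.

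Total counts were 15864120 to 18712625 per library, and the 10 genes together held 0.0737% and 0.0725% of the counts with NECA and 0.102% and 0.0987% with DMSO. Neutrophil markers dominated every library: the 13 markers listed summed to 128000 and 129000 CPM (counts relative to library size, scaled by the TMM method) with NECA and 115000 and 120000 CPM with DMSO. The 8 genes other than Slc40a1 and Slc11a1, a grouping made after the values were seen, summed to 117 and 91.2 CPM with NECA and 313 and 279 CPM with DMSO. In bulk RNA, fewer cells of a type and less RNA per cell cannot be told apart.

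Of the 10 genes, 8 were at or below 59.3% of their DMSO mean with NECA, while Slc40a1 stood at 92.8% and Slc11a1 at 101%. In edgeR's quasi-likelihood fit over 13083 genes, 7 of the 10 were called lower with NECA at adjusted p under 0.05, 0 higher (also 0 at an unadjusted p under 0.05, and 0 by DESeq2) and 3 were not called. At an unadjusted p under 0.05, 9 of the 10 were lower, Slc40a1 and Blvrb among them, and 2053 of all genes tested differed in either direction. DESeq2 called 7 of the 10 lower. Over all genes tested 1.33% were called, 0.978% lower and 0.352% higher. A log2 fold change of -1 or less was found in 7 of the 10 genes and in 5.99% of all genes tested. In 9 of the 10 genes both NECA libraries lay below both DMSO libraries, as in 24.3% of all genes tested, and in 0 of the 10 both lay above, as in 22.4% of all. Nothing is read from these shares, since the contrast chose the genes. With limma on the deposited FPKM in place of edgeR on the counts, 0 of the 10 were called, and 8 had an unadjusted p under 0.05. The median log2 fold change over the 10 genes was -1.50, and over all genes tested it was -0.01.

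**Figure D1:**
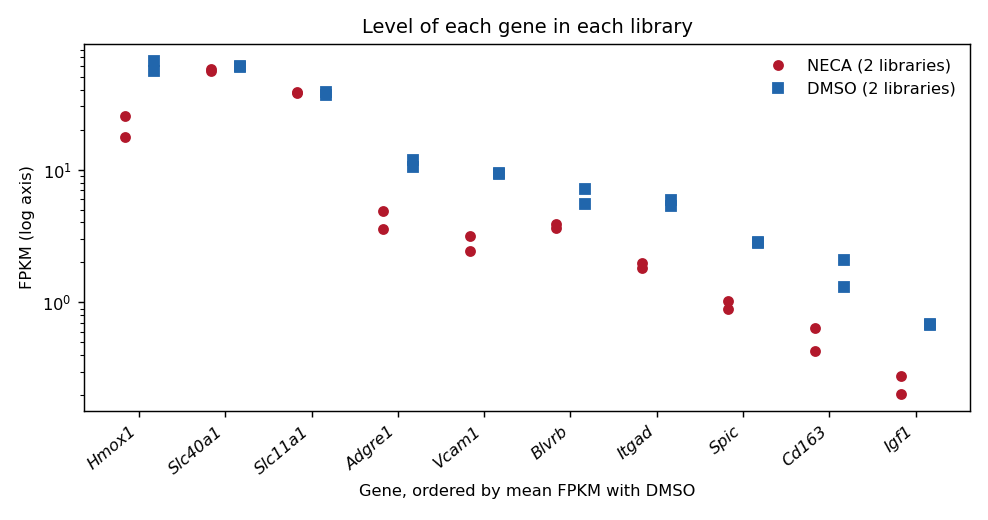
FPKM (fragments relative to gene length and library size, log axis) of each of the 10 genes in each library, NECA as circles and DMSO as squares, with genes ordered by their DMSO mean. For 8 genes both circles lie well below both squares, while Slc40a1 (55.6 and 56.8 with NECA) and Slc11a1 (37.8 and 38.5 with NECA) keep nearly the same height.

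Compared per length as FPKM, the 10 genes spanned a wide range. With NECA the order of mean levels was Slc40a1 (56.2 FPKM), Slc11a1 (38.1 FPKM), Hmox1 (21.5 FPKM), Adgre1 (4.23 FPKM), Blvrb (3.77 FPKM), Vcam1 (2.82 FPKM), Itgad (1.90 FPKM), Spic (0.955 FPKM), Cd163 (0.537 FPKM) and Igf1 (0.240 FPKM). With DMSO the order began with Hmox1 (60.6 FPKM) and Slc40a1 (60.2 FPKM), whose 2 libraries overlapped, and Slc11a1 (37.4 FPKM) followed. Adgre1 (11.1 FPKM), Vcam1 (9.33 FPKM), Blvrb (6.33 FPKM), Itgad (5.61 FPKM), Spic (2.84 FPKM), Cd163 (1.69 FPKM) and Igf1 (0.684 FPKM) came after it. Blvrb and Itgad overlapped with DMSO, and Adgre1 and Blvrb overlapped with NECA. Hmox1 was thus level with Slc40a1 in the DMSO libraries and below both Slc40a1 and Slc11a1 in the NECA libraries.

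Spic (Ensembl gene ENSMUSG00000004359, GRCm38 chromosome 10, 88674772 to 88685015, minus strand) encodes the Ets-family factor that red pulp macrophages need. It had 3.90 and 3.42 CPM with NECA and 11 and 10.8 CPM with DMSO, from 71 and 53 reads against 211 and 204. Both NECA libraries were low and close to each other, and the groups did not overlap. Its log2 fold change was -1.57 (SE 0.21). Counts of Spic are uncertain because a stretch of up to 347 bases of its transcripts is shared with 14 other annotated genes.

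Vcam1 (ENSMUSG00000027962, chromosome 3, 116109949 to 116129688, minus strand) encodes an adhesion molecule that binds the integrin made of the Itga4 and Itgb1 chains, and it is a target of Spi-C in red pulp macrophages. It had 28.3 and 21.7 CPM with NECA against 82.0 and 84.1 CPM with DMSO. The DMSO libraries were nearly level and both NECA libraries lay far below them, with a log2 fold change of -1.73 (SE 0.11), the lowest of the 10 genes. Its exons overlap an antisense gene by 61 bases. Adgre1 (ENSMUSG00000004730, chromosome 17, 57358691 to 57483527) encodes F4/80, the surface protein by which mouse macrophages are usually recognised. It had 15.7 and 11.6 CPM with NECA against 38.5 and 33.9 CPM with DMSO, a log2 fold change of -1.40 (SE 0.15). Itgad (ENSMUSG00000070369, chromosome 7, 128154376 to 128223816) encodes the integrin chain CD11d, which pairs with the Itgb2 chain and is abundant on red pulp macrophages. It had 8.95 and 8.14 CPM with NECA against 26.9 and 24.0 CPM with DMSO, a log2 fold change of -1.57 (SE 0.15). For Adgre1 and Itgad too, the groups did not overlap. Counts of Itgad are uncertain where its exons overlap 4 other annotated genes, with 1 of which it shares 225 bases.

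Among the 10 genes, those of haemoglobin uptake and haem breakdown were lower in the NECA libraries by unequal amounts. Cd163 (ENSMUSG00000008845, chromosome 6, 124304656 to 124330527) encodes the macrophage receptor for haemoglobin and its complex with haptoglobin. It had 2.36 and 3.49 CPM with NECA against 11.4 and 7.12 CPM with DMSO, from 43 and 54 reads against 219 and 134. Its groups did not overlap, and its log2 fold change of -1.67 had an SE of 0.29, the largest among the 10 genes. Hmox1 (ENSMUSG00000005413, chromosome 8, 75093621 to 75100589) encodes haem oxygenase 1, which opens the haem ring to give biliverdin, carbon monoxide and free iron. It had 44.3 and 30.7 CPM with NECA against 116 and 96.6 CPM with DMSO, a log2 fold change of -1.50 (SE 0.14). The second library was the lower one in both conditions. Blvrb (ENSMUSG00000040466, chromosome 7, 27447978 to 27466144) encodes a reductase that acts on biliverdin and flavins. It had 10.9 and 10.1 CPM with NECA against 19.9 and 15.5 CPM with DMSO, a log2 fold change of -0.75 (SE 0.17), and it was not called although its groups did not overlap.

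Slc40a1 (ENSMUSG00000025993, chromosome 1, 45908068 to 45926523, minus strand) encodes ferroportin, the exporter through which cells release iron to the plasma, and iron acts on its messenger through an element in the 5′ untranslated region. Untranslated regions were searched for a C, any 5 bases, the letters CAGTG and any 6 bases, with the 5 bases on both sides of the loop paired. Of the 10 genes, 1 held a match, Slc40a1, and among the listed genes Fth1, Ftl1, Alas2, Tfrc and Igf2 held one too. The search read the strand of the transcript, T standing for U, and 0.146% of genes with an annotated 5′ region and 0.659% with an annotated 3′ region held a match. The elements are printed so that that of Slc40a1 can be read beside those of iron storage, uptake and haem synthesis genes, whose levels differed: Alas2, an erythroid enzyme of haem synthesis, had 13.3 and 0.84 CPM with NECA against 39.1 and 16 CPM with DMSO (log2 fold change -1.92, SE 0.64, not called), and the others are described further on. Nothing is drawn from the element about a level. They come from the GENCODE M21 transcripts on GRCm38, with 6 flanking bases on each side, and the capitals mark the letters CAGTG.
Slc40a1, 5′ UTR, chr1:45925465-45925493, minus strand: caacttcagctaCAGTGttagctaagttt
Fth1, 5′ UTR, chr19:9982732-9982760, plus strand: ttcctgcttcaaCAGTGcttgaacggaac
Ftl1, 5′ UTR, chr7:45459779-45459807, minus strand: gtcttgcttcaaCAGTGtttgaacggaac
Alas2, 5′ UTR, spliced, within chrX:150547458-150552149, plus strand: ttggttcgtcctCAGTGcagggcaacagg
Tfrc, 3′ UTR, chr16:32631219-32631247, plus strand, the first of 4 matches: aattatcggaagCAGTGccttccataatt
A match is a description of the letters, and these libraries measure RNA, not translation.

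Slc40a1 had 500 and 510 CPM with NECA against 539 and 549 CPM with DMSO. The libraries of each condition were nearly level, and both NECA libraries lay slightly below both DMSO libraries. The log2 fold change was -0.11 (SE 0.05, edgeR unadjusted p = 0.0467, adjusted p = 0.31) and the gene was not called. Slc11a1 (ENSMUSG00000026177, chromosome 1, 74375195 to 74386062) encodes NRAMP1, which pumps iron and manganese out of the phagosome in macrophages and neutrophils. It had 140 and 142 CPM with NECA against 136 and 142 CPM with DMSO, and its groups overlapped. Its log2 fold change was 0.02 (SE 0.06), and that sign turned with library size alone as the scale (-0.05) and without DMSO replicate 1 (-0.01).

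Igf1 (ENSMUSG00000020053, chromosome 10, 87858265 to 87937042), a growth factor that tissue macrophages and stromal cells secrete, was the lowest of the 10 genes per length. It had 2.75 and 2.0 CPM with NECA against 6.85 and 6.75 CPM with DMSO, from 50 and 31 reads against 131 and 127. Its groups did not overlap, and its log2 fold change was -1.51 (SE 0.27).

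**Figure D2:**
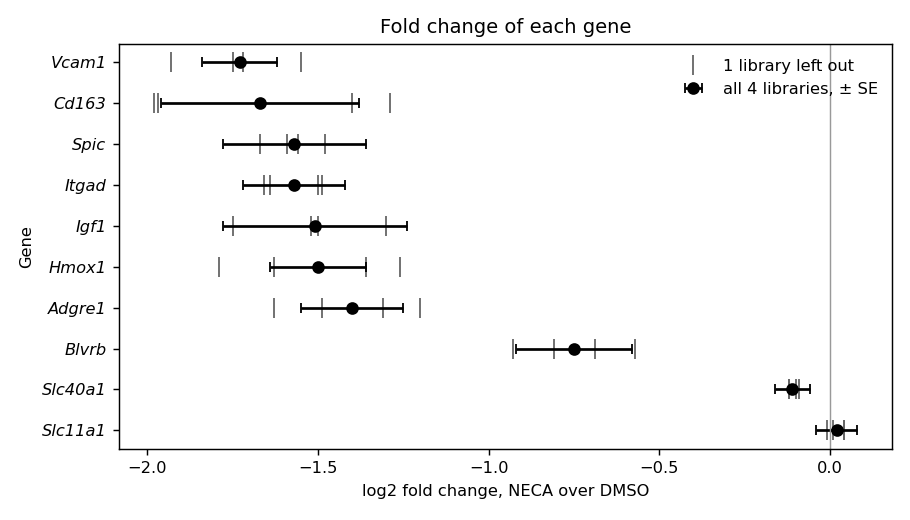
Log2 fold change (NECA over DMSO) of each of the 10 genes, as points with the standard error, and as vertical ticks the values with 1 of the 4 libraries left out. Values run from -1.73 for Vcam1 to -1.40 for Adgre1, then -0.75 for Blvrb, -0.11 for Slc40a1 and 0.02 for Slc11a1, and the ticks of Cd163 spread from -1.98 to -1.29.

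The 7 genes from Vcam1 to Adgre1 thus had log2 fold changes between -1.73 and -1.40, with standard errors of 0.11 to 0.29, and most neighbours in that order lay within their errors. Leaving out 1 library at a time moved the number called lower between 5 and 8. Without DMSO replicate 1, Cd163 (-1.29) and Igf1 (-1.50) were no longer called. Blvrb was called when DMSO replicate 2 (-0.93), NECA replicate 1 (-0.81) or NECA replicate 2 (-0.69) was left out. Of the 8 genes, 7 had their lower NECA level in NECA replicate 2, Cd163 being the exception, and 7 had their lower DMSO level in DMSO replicate 2, Vcam1 being the exception.

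Of the 10 genes, 5 had a promoter in the RefSeq table, for GRCm38.p6: Spic, Cd163, Blvrb, Slc11a1 and Igf1. For Spic and Igf1 the stretch before the RefSeq start lies inside the gene positions given above. The bases before those positions were not searched for Spic and Igf1. Within 250 bases before the start, the letters GAGGAA on either strand, the core bound by the Ets factors PU.1 and Spi-C, were found in 2 of them, Slc11a1 and Igf1, and in 23.3% of all promoters of that length. These are a gene that kept its level and a gene that was lower with NECA, so both are shown, 5′ to 3′ with the match in capitals.
Slc11a1, chr1:74374953-74375202, plus strand: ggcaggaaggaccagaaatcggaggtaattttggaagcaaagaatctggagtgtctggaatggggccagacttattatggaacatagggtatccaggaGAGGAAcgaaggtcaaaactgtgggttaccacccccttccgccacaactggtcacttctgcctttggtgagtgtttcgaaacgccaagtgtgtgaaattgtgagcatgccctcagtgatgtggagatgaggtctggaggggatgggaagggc
Igf1, chr10:87860861-87861110, plus strand: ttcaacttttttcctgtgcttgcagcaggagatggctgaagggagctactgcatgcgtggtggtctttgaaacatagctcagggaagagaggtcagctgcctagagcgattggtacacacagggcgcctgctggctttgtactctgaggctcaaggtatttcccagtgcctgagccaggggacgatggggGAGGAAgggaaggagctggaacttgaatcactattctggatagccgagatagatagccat
The antioxidant response element core TGACNNNGC (10.2% of all promoters), the cAMP response element TGACGTCA (1.55%) and its part TGACG (17.8%), the TATA box TATAAA (12.4%), the E-box CACGTG (6.02%) and the NF-kB consensus (3.90%), all searched on both strands, were found in 0 of the 5.

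Relative to the C1q genes, which encode a complement protein made by macrophages, the 10 genes ranged from overlapping ratios in both conditions to ratios well above those with DMSO. With NECA, C1qa, C1qb and C1qc themselves stood at 31.6%, 29.9% and 28.3% of their DMSO means. A gene whose own level did not change therefore has a higher ratio with NECA. Reads of Vcam1 equalled 68.7% and 75.5% of the summed C1qa, C1qb and C1qc reads of the same library with NECA, and 66.4% and 76.5% with DMSO. Spic equalled 9.47% and 11.9% with NECA and 8.93% and 9.86% with DMSO, and Itgad 21.7% and 28.3% against 21.7% and 21.8%. Vcam1 and Spic thus kept overlapping ratios to C1q in both conditions. Hmox1 stood a little higher with NECA (108% and 107% against 94.2% and 88.0%), as did Adgre1 (38.1% and 40.4% against 31.1% and 30.9%) and Igf1 (6.67% and 6.97% against 5.54% and 6.14%). Blvrb equalled 26.4% and 35.1% with NECA and 16.1% and 14.1% with DMSO. Both transporters stood further apart than the others, Slc40a1 at 1210% and 1770% with NECA and 437% and 500% with DMSO, and Slc11a1 at 339% and 494% against 110% and 129%. Their own levels with NECA were 92.8% (Slc40a1) and 101% (Slc11a1) of the DMSO mean.

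**Figure D3:**
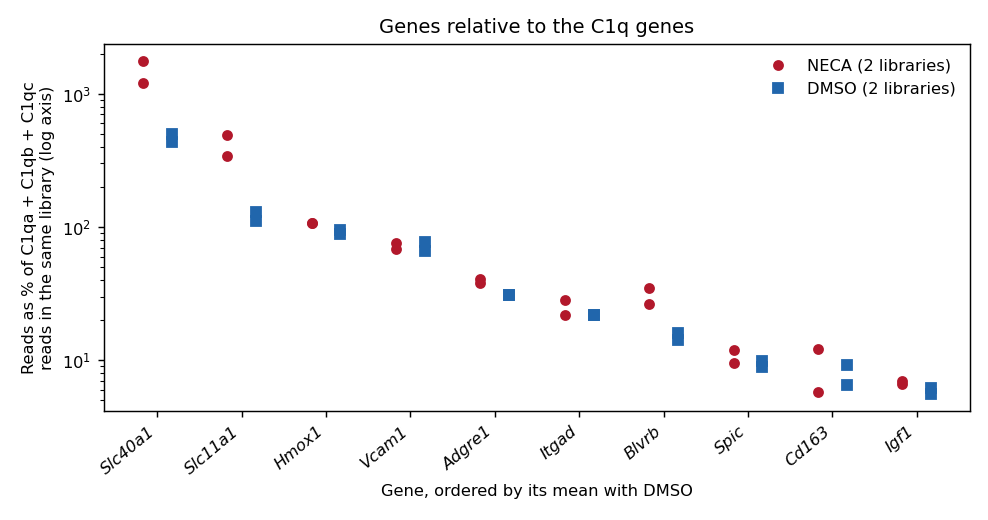
Reads of each gene as a percentage of the summed C1qa, C1qb and C1qc reads of the same library (log axis), NECA as circles and DMSO as squares. Vcam1, Itgad, Spic and Cd163 touch or overlap between conditions, whereas the ratios of Blvrb, Slc11a1 and Slc40a1 are higher with NECA. The C1q genes themselves are lower with NECA, so a higher ratio is not a higher level of the gene.

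Genes with the most similar pattern were sought among 8104 other genes averaging 5 CPM or more, by the Euclidean distance over the 4 libraries of log2(CPM + 0.5) centred on the DMSO mean. The 5 nearest to Vcam1 were C1qc (distance 0.133), C1qb (0.158), Maf (0.173), Stab2 (0.221) and Slco2b1 (0.283). The 5 nearest to Hmox1 were Vav2 (0.118), C1qa (0.186), Fcgrt (0.190), Siglec1 (0.205) and Slco2b1 (0.205). C1qb had 13.8 and 9.30 CPM with NECA and 40.1 and 37.3 CPM with DMSO. Vav2 had 5.44 and 3.36 CPM with NECA and 14.6 and 11.2 CPM with DMSO. These distances describe 4 libraries in 2 conditions, and any gene with a like difference comes out near.

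Beside the 10 genes, 23 genes known from red pulp macrophages or from macrophages more widely were examined, and 13 of them fell with NECA, 0 rose and 10 did not pass edgeR's test. Over all genes tested 0.978% were called lower and 0.352% higher. This list, like those that follow, was made with earlier results of these data known, so its counts are a description and no independent test. At an unadjusted p under 0.05, 1 of the 23 was higher, and DESeq2 called 1 higher, Spi1. With limma on the FPKM values 0 were called lower, and 18 had an unadjusted p under 0.05 in that direction. The median log2 fold change of the 23 was -1.49, and over all genes tested it was -0.01. Mrc1, the mannose receptor, fell to 9.17 and 6.40 CPM with NECA, against 32.3 and 25.4 CPM with DMSO (log2 fold change -1.88, SE 0.19, edgeR adjusted p = 0.000446). Cd5l, a secreted scavenger protein of tissue macrophages, fell to 3.68 and 3.68 CPM, against 12.9 and 9.14 CPM (-1.58, SE 0.24, edgeR adjusted p = 0.00836). Other genes that fell encode complement and pattern-recognition proteins (Fcna at -1.92, C1qa at -1.65, C1qb at -1.73, C1qc at -1.81), receptors (Stab2 at -1.80, Gfra2 at -1.74, Axl at -1.49, Mertk at -1.37) and transcription factors (Maf at -1.79, Irf8 at -1.34). Gfra2 was not called without DMSO replicate 1 (-1.49), and Irf8 was not called without DMSO replicate 1 (-1.31) or DMSO replicate 2 (-1.39). The log2 fold changes of the nuclear receptors Pparg (-1.59) and Nr1h3 (-1.19) and of the prostaglandin-degrading enzyme Hpgd (-1.48) did not pass, and Hpgd was called when NECA replicate 1 (-2.75) or NECA replicate 2 (-0.84) was left out. Without NECA replicate 1, Pparg (-2.03) was called too.

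Spi1, Csf1r, Cd81 and Treml4, of the same list, were not called. Spi1, which encodes the myeloid factor PU.1, had 881 and 845 CPM with NECA against 766 and 781 CPM with DMSO (log2 fold change 0.16, not called), Csf1r, the receptor for macrophage growth factor, 126 and 111 CPM against 168 and 135 CPM (-0.35, not called), and Cd81, a tetraspanin, 82.7 and 67.5 CPM against 80.5 and 80.6 CPM (-0.10, not called). Spi1 was called higher without NECA replicate 2 (0.19), and Csf1r was called lower without DMSO replicate 2 (-0.50) and without NECA replicate 1 (-0.44). Treml4, a receptor of splenic macrophages, had 48.8 and 55.3 CPM with NECA against 54.7 and 56.5 CPM with DMSO (-0.10, not called). Counts of Maf, which shares 402 bases with another annotated gene, and of Csf1r, with 873 such bases, are uncertain.

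**Figure D4:**
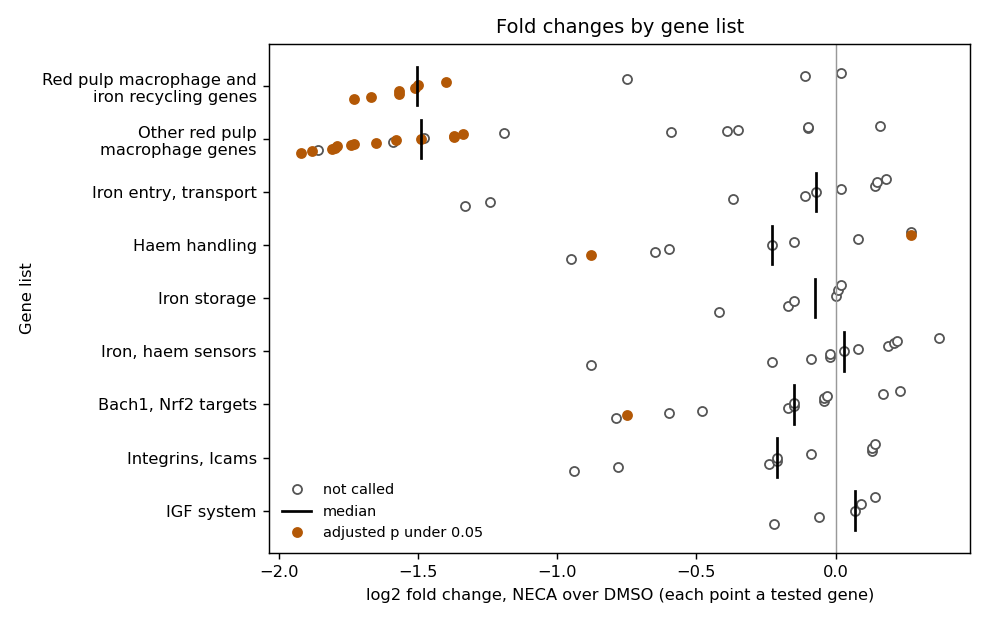
Log2 fold change (NECA over DMSO) of each tested gene of 9 lists, filled where edgeR's adjusted p was under 0.05, with the median of each list as a vertical bar. The 10 genes and the other red pulp macrophage genes have medians of -1.50 and -1.49. The medians of the iron, haem, Bach1 and Nrf2, integrin and IGF lists drawn lie between -0.23 and 0.07. The iron export list is not drawn, its 1 tested gene being Cp (1.02, SE 0.57, from 10 to 21 reads per library).

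Among the other genes of iron and haem handling, 45 were listed and 36 could be tested, of which 1 rose, 1 fell and 34 did not pass edgeR's test. Their median log2 fold change was -0.02. The gene that rose was Hp, haptoglobin, which binds free haemoglobin for Cd163 and is stored in neutrophil granules: it had 1950 and 2030 CPM with NECA against 1610 and 1700 CPM with DMSO (0.27, SE 0.04, edgeR adjusted p = 0.0142). It was not called without DMSO replicate 1 (0.23). The gene that fell was Lrp1, the receptor that takes up haem bound to haemopexin among many other ligands, with 56.8 and 35.9 CPM against 84.6 and 86.8 CPM (-0.88, SE 0.15, edgeR adjusted p = 0.0150). DESeq2 did not call it. Hmox2 had 30.9 and 27.5 CPM with NECA against 29.7 and 38.7 CPM with DMSO (-0.23, not called), and its groups overlapped. Blvra had 4.45 and 5.36 CPM against 8.78 and 6.59 CPM (-0.65, not called). Counts of Hmox2 are uncertain because up to 767 bases are shared with 2 other annotated genes. In haem synthesis and export, Alas1, the first enzyme of haem synthesis, stood at a log2 fold change of 0.27 and Flvcr1, a haem exporter, at 0.08, neither called by edgeR, while DESeq2 called Alas1 higher. Alas1 was also called by edgeR without NECA replicate 1 (0.33). Cp, the plasma ferroxidase that works with ferroportin, had 1.15 and 1.10 CPM with NECA against 0.523 and 0.584 CPM with DMSO (1.02, SE 0.57, not called). Its values rest on 21 and 17 reads with NECA against 10 and 11 with DMSO. Counts of Alas1 and Flvcr1 are uncertain because 352 and 782 bases are shared with another annotated gene.

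The storage and uptake genes whose elements are printed above had log2 fold changes of -0.15 to -0.37 and were not called with all 4 libraries in the main fit. Fth1, the ferritin heavy chain, had 477 and 472 CPM with NECA against 502 and 551 CPM with DMSO (log2 fold change -0.15, not called), and Ftl1, the light chain, 376 and 328 CPM against 392 and 403 CPM (-0.17, not called). Ftl1 was called without NECA replicate 1 (-0.27). Tfrc, the transferrin receptor, had 35.4 and 39.5 CPM with NECA against 50.8 and 45.9 CPM with DMSO (-0.37, not called), and it was called without NECA replicate 2 (-0.44). With all 4 libraries, Tfrc was called with library size alone (-0.44) and without the filter on low counts (-0.37), and Ftl1 without that filter (-0.18). Counts of Ftl1 are uncertain because up to 910 bases are shared with 7 other annotated genes, and Fth1 shares 274 bases with 1 gene. Ncoa4, which carries ferritin to the lysosome, stood at 320 and 305 CPM with NECA and 309 and 308 CPM with DMSO (0.02), with 1878 bases shared with another annotated gene. Slc48a1, the lysosomal haem exporter of macrophages, stood at 66.0 and 66.7 CPM against 75.6 and 71.7 CPM (-0.15, not called).

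Ltf and Lcn2 encode iron-binding proteins of neutrophil granules. Ltf, lactoferrin, had 30900 and 29200 CPM with NECA against 27700 and 27100 CPM with DMSO (log2 fold change 0.14, not called), and Lcn2, lipocalin 2, 9380 and 9020 CPM against 8220 and 8320 CPM (0.15, not called). Both were called higher by DESeq2, and by edgeR when NECA replicate 1 (0.10 for Ltf, 0.13 for Lcn2) or NECA replicate 2 (0.18 for Ltf, 0.19 for Lcn2) was left out. Slc25a37, the mitochondrial iron importer mitoferrin 1, had 228 and 259 CPM with NECA against 218 and 213 CPM with DMSO (0.18, not called), and 0.27, called, without NECA replicate 1. Its counts are uncertain because 382 bases are shared with other annotated genes.

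The regulators of Hmox1 were not called. Of 11 tested sensors and regulators of iron and haem, 0 were called in either direction by edgeR or DESeq2, and 3 were higher and 1 lower at an unadjusted p under 0.05. Bach1, the haem-sensing repressor of Hmox1, had 181 and 175 CPM with NECA against 158 and 150 CPM with DMSO (log2 fold change 0.21, not called), and Nfe2l2, which encodes the activator Nrf2, 171 and 163 CPM against 163 and 153 CPM (0.08, not called). Their dimer partner Mafg stood at 0.19 and was called without NECA replicate 1 (0.22). Fbxl5, which degrades an iron-regulatory protein when iron is plentiful, stood at 0.22 and was called without NECA replicate 1 (0.34). Of 12 tested Bach1 and Nrf2 targets beside Hmox1, 0 rose and 1 fell by edgeR, with a median of -0.15. At an unadjusted p under 0.05, 2 were higher and 4 lower, and DESeq2 called 1 higher, Gsr, and 1 lower. Prdx1, a peroxiredoxin, fell to 13.8 and 11.7 CPM with NECA, against 23.4 and 19.5 CPM with DMSO (-0.75, SE 0.15, edgeR adjusted p = 0.0385), and was not called without DMSO replicate 1 (-0.61). It shares 597 bases with other annotated genes. Gsr, glutathione reductase, had 1050 and 1080 CPM with NECA against 918 and 966 CPM with DMSO (0.17, not called by edgeR, but called without NECA replicate 1 at 0.20), and Txnrd1, thioredoxin reductase, 68.5 and 75.0 CPM against 74.6 and 73.0 CPM (-0.04, not called).

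The binding partners of the adhesion genes were not called. Of 9 tested integrins and counter-receptors, 0 were called in either direction by edgeR or DESeq2, and 3 were higher and 3 lower at an unadjusted p under 0.05. Itgb2, the partner of Itgad, had 2250 and 2200 CPM with NECA against 2070 and 2000 CPM with DMSO (log2 fold change 0.13). Of the other chains that pair with it, Itgam (CD11b) stood at 0.14, Itgal (CD11a) at 0.13 and Itgax (CD11c) at -0.24, beside -1.57 for Itgad. Itga4, a chain of the Vcam1 receptor, had 58.5 and 49.0 CPM with NECA against 61.6 and 63.1 CPM with DMSO (-0.21). Itgb7, another partner of Itga4 in binding Vcam1, had 10.7 and 5.36 CPM with NECA against 14.5 and 16.6 CPM with DMSO (-0.94, not called), and it was called when NECA replicate 1 was left out (-1.53). Icam1, a ligand of Itgb2 integrins, stood at -0.78 and was not called. Counts of Itgam, Itga4 and Itgb2 are uncertain because 3454, 908 and 228 bases are shared with another annotated gene. In the IGF system, 5 of 12 genes could be tested and 0 were called by edgeR or DESeq2, with 1 higher and 1 lower at an unadjusted p under 0.05. Igf1r, the receptor for Igf1, had 341 and 353 CPM with NECA against 336 and 316 CPM with DMSO (0.09). Igf2r stood at 0.07 and the insulin receptor gene Insr at 0.14, while Igf2, Igfbp2, Igfbp5 and Irs1 had 0 reads in every library.

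Markers of several other cell types were also at lower levels with NECA. Of 12 tested macrophage markers, 8 of which are also among the 10 or the 23 genes, all were below 0 and 9 were called lower with NECA, and their sum was 400 to 489 CPM with NECA and 701 to 805 CPM with DMSO. Of the marginal zone macrophage markers, all 3 tested were below 0, 1 was called lower by edgeR (Siglec1, at -1.49) and 2 by DESeq2, the sum was 6.14 to 9.94 CPM with NECA and 18.0 to 23.1 CPM with DMSO, and Cd209b had 0 reads in every library. Of 14 tested erythroid markers, all were below 0 and 0 were called by edgeR or DESeq2, with 13 lower at an unadjusted p under 0.05, and their sum was 62.2 to 390 CPM with NECA and 555 to 1260 CPM with DMSO. The globin gene Hbb-bs had 137 and 7.30 CPM in the NECA libraries and 525 and 211 CPM in the DMSO libraries, so its 2 NECA libraries lay far apart. Of 9 tested B cell markers, all were below 0, 1 was called lower by edgeR and by DESeq2 and 8 were lower at an unadjusted p under 0.05, and the sum was 29.8 to 138 CPM with NECA and 234 to 253 CPM with DMSO.

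Of the T and NK cell markers 7 of 7 tested were below 0, of the dendritic cell markers 5 of 6, and of the basophil, mast cell and eosinophil markers 6 of 7, with 0, 0 and 1 called lower by edgeR and by DESeq2 and 5, 2 and 4 lower at an unadjusted p under 0.05. The sums of T and NK cell markers were 18.6 to 19.1 CPM with NECA and 30.5 to 31.9 CPM with DMSO, those of dendritic cell markers 12.2 to 34.2 CPM and 46.0 to 54.6 CPM, and those of basophil, mast cell and eosinophil markers 33.7 to 38.2 CPM and 53.7 to 59.1 CPM. The sums of monocyte markers (622 to 670 CPM with NECA, 618 to 634 CPM with DMSO), progenitor markers (856 to 1010 CPM, 882 to 909 CPM), megakaryocyte and platelet markers (69.5 to 85.3 CPM, 73.1 to 86.8 CPM) and markers of stroma and endothelium (23.1 to 29.5 CPM, 27.9 to 34.7 CPM) overlapped between conditions. Most of the monocyte sum was Ly6c2, with 582 and 575 CPM with NECA against 522 and 549 CPM with DMSO (0.11, not called), and the other 8 monocyte markers were below 0 and not called, among them Ccr2 at -0.99 and Ace at -0.63. Most of the progenitor sum was Mki67 (506 and 603 CPM with NECA, 534 and 510 CPM with DMSO) and Top2a (308 and 369 CPM, 329 and 322 CPM). Of 5 tested progenitor markers 2 were below 0, among them Kit (-0.46, not called). Most of the megakaryocyte and platelet sum was Itgb3 (80.3 and 64.8 CPM with NECA, 78.1 and 66.9 CPM with DMSO). Of 4 tested markers of that list 3 were below 0, among them Pf4 (-1.50, not called). Neutrophil markers mostly went the other way, with 2 of 13 below 0. Mmp8 and Mmp9 (both at 0.23) were called higher by edgeR, DESeq2 called 5 higher, and both called 0 lower. At an unadjusted p under 0.05, 9 neutrophil markers were higher and 1 lower. The stromal markers are given because stromal cells also make Vcam1 and Igf1. Cxcl13, Ccl19 and Ccl21a had 0 reads in every library, and 3 of 15 could be tested, with 0 called. Pecam1 had 13.8 and 7.75 CPM with NECA against 13.6 and 21.3 CPM with DMSO (-0.68). Col1a1 had 7.85 and 6.46 CPM against 6.74 and 5.47 CPM (0.23), and Acta2 7.30 and 8.72 CPM against 6.48 and 6.96 CPM (0.25). The part of these other cells in the values of the 10 genes was not tested.

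**Figure D5:**
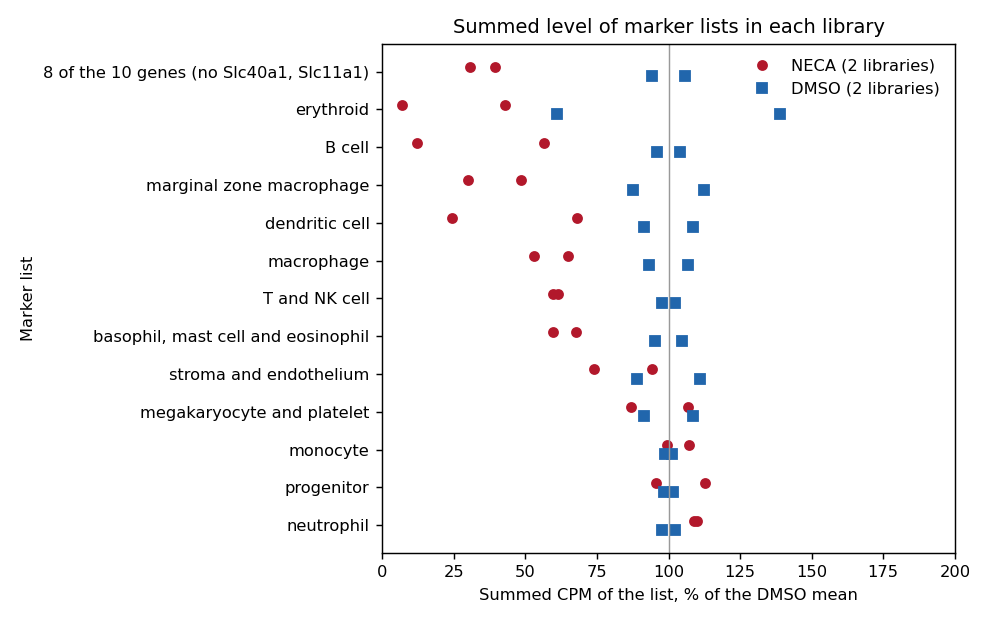
Summed CPM of each marker list in each library as a percentage of the mean of the DMSO libraries, with the 8 genes other than Slc40a1 and Slc11a1 as the first line, NECA as circles and DMSO as squares. Erythroid, B cell and dendritic cell sums lie far apart between the 2 NECA libraries (62.2 and 390 CPM, 29.8 and 138 CPM, 12.2 and 34.2 CPM). Monocyte and progenitor sums overlap between conditions, the monocyte sum being mostly Ly6c2 and the progenitor sum mostly Mki67 and Top2a. The neutrophil sum is somewhat higher in both NECA libraries (128000 and 129000 CPM) than in both DMSO libraries (115000 and 120000 CPM).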

How the data were processed

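RNA of spleen PMN-MDSC was measured in 4 libraries, 2 with NECA and 2 with DMSO, grouped by their titles. Per the labels' protocols, cDNA was made with SMARTer chemistry, amplified by PCR and sequenced as read pairs. The deposited tables hold, per the file headers, whole-number read counts and FPKM values per gene and library, and 27 symbols that had been turned into dates were restored. Per the submitters' processing notes, the authors used HISAT, StringTie and edgeR, with mm10 or GRCm38. The sources used here do not give the counting program, annotation release or strand setting. Positions are from GENCODE M21.

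The counts were filtered with filterByExpr (minimum count 10), scaled by TMM and tested with edgeR 4.0.16 (glmQLFit, glmQLFTest; R 4.3.3, no block), with Benjamini-Hochberg adjustment over 13083 genes and a threshold of 0.05. The SE was computed from the log2 fold change and the F statistic. Alternatives used DESeq2 1.42.0 and limma 3.58.1 (limma on log2(FPKM + 0.1) and log2(FPKM + 1) of the deposited FPKM), other scalings, no filter, a replicate block and leaving out each library. Shared sequence means at least 200 bases at 95% identity in transcripts of another gene.

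The members and lists were chosen with earlier results of these data known. From each list, called genes, up to 3 abundant genes that were not called and a fixed set of iron, integrin and regulator genes are named; Pparg, Nr1h3, Hpgd, Treml4 Itgb7, Icam1, Alas2 and other genes outside that rule were named after their values were seen. Of the called genes in the lists, 1 is not reported here by name.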

Additional observations from a re-analysis of the deposited data

How the results depend on the processing

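The 8 genes other than Slc40a1 and Slc11a1 kept log2 fold changes below 0 in all 88 values over the 11 alternatives, between -1.98 and -0.44. Of the 10 genes, 7 were called lower, and 5 to 8 with 1 library left out. With limma on log2(FPKM + 0.1) or log2(FPKM + 1), 0 of the 10, 0 of the 23 other red pulp macrophage genes and 0 of all genes were called lower, and 1 gene in all was called higher, although 8 of the 10 and 18 of the 23 had an unadjusted p under 0.05. The cause was not tested. The value of Slc11a1 was -0.05 with library size alone and -0.01 to 0.04 with 1 library left out. Over all genes, 46 were higher and 128 lower. These counts were 21 and 217 with library size alone, 285 and 590 without the filter on low counts, and 123 and 298 with the replicate block. DESeq2 called 151 higher. With 1 library left out, 23 to 230 were higher and 86 to 560 lower. With 1 library left out, the remaining sample of that condition is assumed to vary like the other condition.

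Of the other iron and haem genes, 1 was higher and 1 lower. Higher counts were 2 with RLE size factors, 4 with DESeq2, 6 without the filter, 4 with the replicate block, 0 with limma and 0 to 7 with 1 library left out. Lower counts were 2 with library size alone, 0 with DESeq2, 5 without the filter, 0 with limma and 1 to 4 with 1 library left out. Of the 23 other red pulp macrophage genes, 1 was higher with DESeq2 and without the filter, and 0 to 1 with 1 library left out. Whether the replicate numbers pair the samples is not given. Over genes, the difference between the NECA libraries correlated with that between the DMSO libraries at r = 0.0198. That value cannot settle the pairing, and the block serves only as an alternative. Besides Blvrb, the block added calls of Hpgd, Pparg, Csf1r, Lcn2, Ltf, Alas1 and Itgb7. Depth limits Spic, Cd163 and Igf1 most, at 31 to 71 reads per NECA library.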
